A study of Homo sapiens with 6 samples.

Results

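The enzymes that place, maintain and remove DNA methylation were followed in K562 cells that carried a transgene for wild type C/EBPα, for its p30 isoform or for neither. They comprise the methyltransferases DNMT1, DNMT3A and DNMT3B, the DNMT1 partner UHRF1, the dioxygenases TET1, TET2 and TET3, and the isocitrate dehydrogenases IDH1 and IDH2. The 9 genes were chosen by name, and each had 1 row in every one of the 3 deposited tables. They belong to 16586 symbols with a value in all groups, of which 13670, including all 9 genes, exceeded 1 FPKM, a fragment count scaled to transcript length and to the fragments mapped, in at least 1 group. In CEBPA cells DNMT1, UHRF1, DNMT3A, DNMT3B and IDH2 were 1.82-fold to 2.96-fold lower than in CTR cells, while TET1 and TET2 were 1.57-fold and 1.71-fold higher. In P30 cells the largest difference from CTR was that of IDH1, which was 1.73-fold lower there and 1.69-fold lower in CEBPA.

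K562 cells come from a human leukemia and keep erythroid features. Of the 3 stable lines, made with a PiggyBac transposon, CTR carried an empty vector, CEBPA a Tet-inducible gene for wild type C/EBPα, and P30 one for the p30 isoform, with 2 replicates each. All 6 samples, CTR included, received 200 ng/ml doxycycline, which turns on the Tet promoter, for 48 h. For the CEBPA line, the caption of the study's western blot names both the full-length protein and p30, so that these lines may not separate the isoforms fully. No sample without the drug was used here. The lines were made separately, so that a property of a line and an effect of its transgene cannot be told apart, and whether a line is 1 clone is not given in the sources used here. The transcript of CEBPA itself was not analysed here. Each table holds 1 FPKM for a gene in a group, computed by the authors over both replicates. Every value below therefore stands without a replicate error, and no test between groups could be made. The study gives a range of sequenced read pairs over its samples, but the tables hold no counts, so that the depth behind a single value could not be computed. Changes are differences of log2(FPKM + 1), on which the change of a gene with few FPKM appears smaller than its ratio. The words "higher" and "lower" describe these pooled values only.

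DNA methylation in mammals is the addition of a methyl group to cytosine, mostly where a guanine follows (CpG). DNMT3A and DNMT3B methylate new sites. After replication, UHRF1 recognizes DNA methylated on 1 strand and brings DNMT1, which methylates the other. TET enzymes oxidize methylcytosine and so start its removal, for which they need 2-oxoglutarate, a product of IDH1 in the cytosol and of IDH2 in mitochondria. In acute myeloid leukemia, mutations recur in DNMT3A, TET2, IDH1 and IDH2, as they do in CEBPA.

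On GRCh37 (hg19), to which the authors aligned, the methylation writers are the protein coding genes DNMT1 (chromosome 19, 10244018 to 10341962, minus strand), UHRF1 (chromosome 19, 4903092 to 4962165, plus strand), DNMT3A (chromosome 2, 25450724 to 25565459, minus strand) and DNMT3B (chromosome 20, 31350191 to 31397165, plus strand). On the plus strand lie TET1 (chromosome 10, 70320094 to 70454244), TET2 (chromosome 4, 106067032 to 106200973) and TET3 (chromosome 2, 74212037 to 74335303). On the minus strand lie IDH1 (chromosome 2, 209100953 to 209130798) and IDH2 (chromosome 15, 90626277 to 90645709).

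The promoters of 4 of the genes are shown because the results turn on these pairs: UHRF1 and DNMT1, which were lower in CEBPA and not in P30, and IDH1 and IDH2, which differed from each other in P30. They were read from GRCh37 at the start of each gene's canonical Gencode transcript, with 170 bases before the start and 20 after it. In GRCh37 the UHRF1 stretch is chr19:4909343-4909532 on the plus strand, and the others lie on the minus strand at chr19:10305610-10305799 (DNMT1), chr2:209119776-209119965 (IDH1) and chr15:90645681-90645870 (IDH2). Capitals mark an E2F motif in UHRF1 and DNMT1 and CCAAT boxes in IDH1 and IDH2, on either strand (CCAAT reads ATTGG on the other strand).
UHRF1: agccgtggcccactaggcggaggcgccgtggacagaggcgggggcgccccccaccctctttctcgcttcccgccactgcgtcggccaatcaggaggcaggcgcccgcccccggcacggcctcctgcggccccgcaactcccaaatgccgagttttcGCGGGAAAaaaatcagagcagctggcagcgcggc
DNMT1: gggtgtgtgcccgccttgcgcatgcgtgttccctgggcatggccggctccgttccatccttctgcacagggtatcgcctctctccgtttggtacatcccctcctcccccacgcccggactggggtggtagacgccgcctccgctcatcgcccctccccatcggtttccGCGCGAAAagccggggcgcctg
IDH1: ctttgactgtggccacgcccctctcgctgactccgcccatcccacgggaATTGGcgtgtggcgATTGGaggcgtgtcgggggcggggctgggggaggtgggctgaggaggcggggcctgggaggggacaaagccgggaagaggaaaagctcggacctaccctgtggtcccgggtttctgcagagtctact
IDH2: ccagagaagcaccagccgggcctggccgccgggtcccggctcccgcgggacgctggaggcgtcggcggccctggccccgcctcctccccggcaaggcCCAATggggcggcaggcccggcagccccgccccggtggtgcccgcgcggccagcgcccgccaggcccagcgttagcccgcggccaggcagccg

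Motifs were searched on both strands in windows of 300 bases, from 250 before the start to 50 after it, of 19869 protein coding genes. E2F factors, which drive genes of DNA replication, were represented by the spellings TTTCCCGC, TTTGGCGC, TTTCGCGC and TTTGCCGC. Any of these occurred in 4.37% of all windows, and among the 9 genes in UHRF1, where GCGGGAAA begins 14 bases before the start, and in DNMT1, where GCGCGAAA begins 2 bases before it. The last pair of spellings was added after the first search had been seen. The match in DNMT1 rests on that pair alone (TTTCGCGC), and with the first pair only UHRF1 matched among the 9 genes. CCAAT, the box bound by NF-Y, was found in UHRF1, IDH1 and IDH2 and in 36.0% of all windows. TTGCNNAA, a core of C/EBP sites, was found in 8.10% of all windows, and GATAAG, the motif of erythroid GATA factors, in 4.87%. Neither occurred in the window of any of the 9 genes. These matches describe letters in the window and are not evidence of binding. The windows themselves held between 10 (TET1) and 46 (DNMT3A) CpG sites, against a median of 23 over all genes, and only TET1 and IDH1, with 20, were below that median.

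The level of the genes in each line spanned a 19.6-fold range in CTR, with DNMT1 at the top and TET2 at the bottom. DNMT1 remained the most abundant of the 9 in all lines. The TET genes filled the lowest 3 places in CTR only, since DNMT3A was the lowest of all in CEBPA and stood below TET3 in P30. With 1 pooled value per group, the spread that would separate neighbours in this order is not known.

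**Figure D1:**
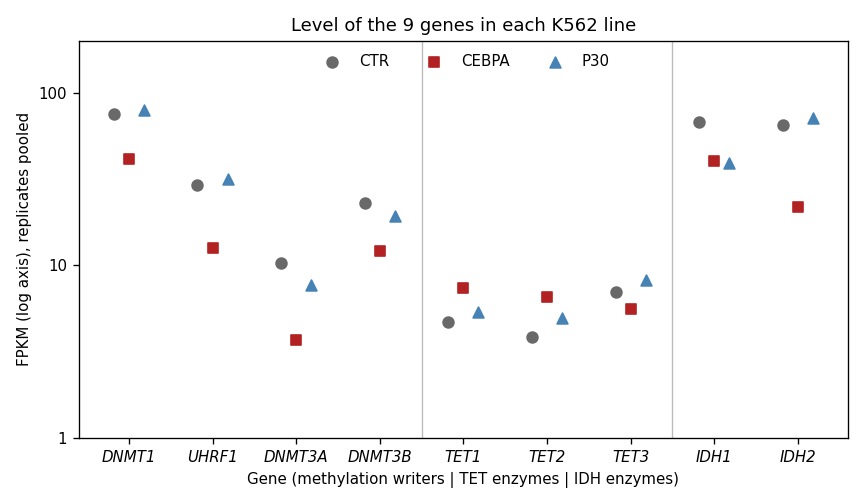
FPKM of each of the 9 genes (log axis) in CTR, CEBPA and P30, 1 pooled value per point with no error available. The 4 writer genes and IDH2 lie lowest in CEBPA, TET1 and TET2 highest in CEBPA, and IDH1 is as low in P30 (39.0 FPKM) as in CEBPA (40.0 FPKM).

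Maintenance methylation was examined first. DNMT1 was measured at 75.6 FPKM in CTR, at 41.6 in CEBPA and at 79.3 in P30. It was thus 1.82-fold lower in CEBPA than in CTR (-0.85 on the log2 scale), whereas P30 stood 4.83% above CTR (0.07). In bulk RNA, fewer cells with a transcript and less of it per cell cannot be told apart, here and in all values that follow. UHRF1 stood at 29.1, 12.5 and 31.6 FPKM in the same order, or 2.32-fold less in CEBPA than in CTR. For CEBPA the log2 change was -1.15 relative to CTR and -1.27 relative to P30, and for P30 it was 0.12 relative to CTR. Of the 13673 genes compared between CEBPA and CTR, 10.1% were lower by as much as DNMT1 or more, and 4.78% by as much as UHRF1. The ratio of DNMT1 to UHRF1 was 2.60 in CTR, 3.31 in CEBPA and 2.51 in P30, so that the reduction in CEBPA was larger for UHRF1 than for the enzyme it recruits.

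The de novo enzymes were also lower in CEBPA. DNMT3A stood at 10.4 FPKM in CTR, at 3.69 in CEBPA and at 7.75 in P30. This made it 2.81-fold lower in CEBPA than in CTR, the largest reduction among the methyltransferases, with a log2 change of -1.28. DNMT3B, the more abundant de novo enzyme here, stood at 23.1, 12.1 and 19.4 FPKM, with a log2 change of -0.88 in CEBPA vs CTR. In P30 both stood between the other lines. The log2 change in P30 vs CTR was -0.38 for DNMT3A and -0.23 for DNMT3B, and 6.42% and 13.1% of the 12395 genes compared were lower by as much. The spread of all changes in P30 vs CTR, as the scaled median absolute deviation, was 0.20, and the changes of DNMT3A and DNMT3B were both larger than it. This spread is between genes and not between replicates, and DNMT3B exceeded it narrowly. The ratio of DNMT3B to DNMT3A was 2.23 in CTR, 3.27 in CEBPA and 2.51 in P30.

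The TET genes did not move as 1 group. TET1 stood at 4.72 FPKM in CTR, at 7.41 in CEBPA and at 5.36 in P30. TET2, the family member most often mutated in myeloid malignancy, had 3.85, 6.59 and 4.98 FPKM. Both were thus highest in CEBPA, by 1.57-fold and 1.71-fold over CTR, with log2 changes of 0.56 and 0.65. TET3 went the other way, with 7.00, 5.59 and 8.28 FPKM, so that CEBPA differed from CTR by -0.28 and from P30 by -0.49 on the log2 scale. These changes are within the common range: 24.7% of the genes compared were higher in CEBPA vs CTR by as much as TET1, 22.4% by as much as TET2, and 34.1% were lower by as much as TET3. In P30 vs CTR all 3 TET genes were higher, by 0.15 for TET1, 0.30 for TET2 and 0.21 for TET3. There 24.7%, 9.59% and 17.0% of the genes compared were higher by as much. TET2 and TET3, like DNMT3A and DNMT3B, thus exceeded the spread of 0.20 between genes. TET3 was the most abundant of the family in CTR and P30, at 45.0% and 44.5% of the summed TET FPKM, and the least abundant in CEBPA, at 28.5%.

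IDH1 and IDH2 differed in their pattern. IDH2 stood at 64.9 FPKM in CTR, at 21.9 in CEBPA and at 71.5 in P30. It was the member with the largest change, 2.96-fold lower in CEBPA than in CTR and 3.26-fold lower than in P30, or -1.52 and -1.66 on the log2 scale. Of the genes compared, 1.95% were lower by as much relative to CTR, and 0.862% relative to P30. In P30 vs CTR the log2 change of IDH2 was 0.14. IDH1 stood at 67.5, 40.0 and 39.0 FPKM, so that it was lower in both induced lines, with log2 changes of -0.74 and -0.78. In P30 vs CTR, where changes were small in general, only 150 of 12395 genes (1.21%) were lower by as much as IDH1, which had the largest change of the 9 genes there. Between CEBPA and P30 its log2 change was 0.04. Both comparisons of IDH1 with CTR rest on the same pooled CTR value. The antisense RNA IDH1-AS1 overlaps IDH1 on the opposite strand, which the stranded library can separate, and stood at 1.27, 0.668 and 0.811 FPKM. The ratio of IDH1 to IDH2 was 1.04 in CTR, 1.82 in CEBPA and 0.545 in P30.

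**Figure D2:**
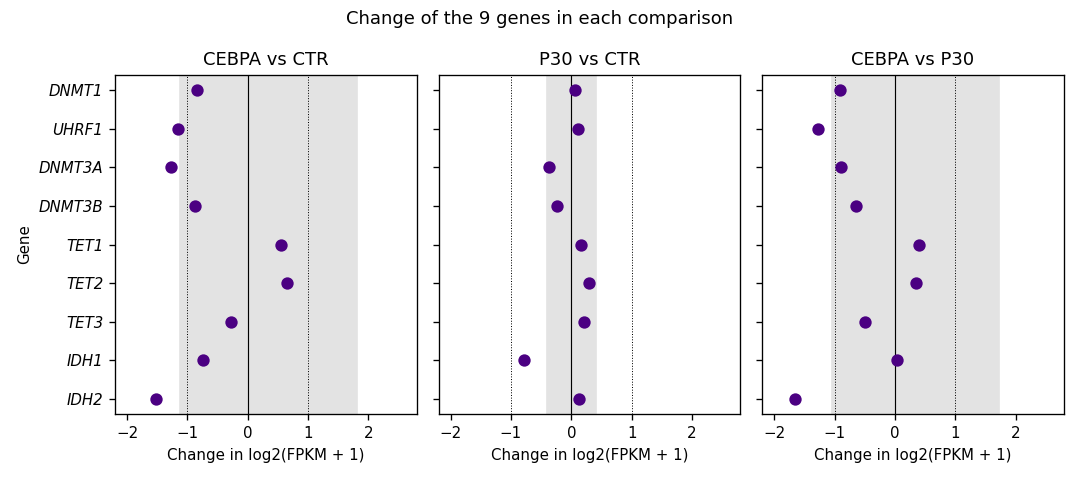
Change in log2(FPKM + 1) of the 9 genes, 1 panel for each pair of groups; each point is a difference of 2 pooled values, dotted lines mark a 2-fold change and grey bands span the 5th to 95th percentile of all 13670 genes. IDH2, DNMT3A and UHRF1 pass the lower line in CEBPA vs CTR, and IDH1, at -0.78, lies below the band in P30 vs CTR. The 3 comparisons share groups, so that they are not independent.

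Counted over the whole set, 7 of the 9 genes were lower and 2 higher in CEBPA than in CTR, with a median log2 change of -0.85 against -0.01 for all genes compared, 50.5% of which were lower. At least 2-fold lower were UHRF1, DNMT3A and IDH2, that is 3 of 9, where the background was 6.92% of all genes, and 0 of 9 were at least 2-fold higher, where it was 14.0%. All these counts are on the log2(FPKM + 1) scale. In CEBPA vs P30, UHRF1 and IDH2 were at least 2-fold lower on it (background 5.79%) and 0 genes at least 2-fold higher (background 13.1%), with 6 of 9 genes lower and a median of -0.65. DNMT3A lay just outside, at -0.90, although its FPKM themselves were 2.10-fold lower in CEBPA than in P30, and with a pseudocount of 0.1 it raised the count to 3. In P30 vs CTR 0 of 9 genes differed by 2-fold in either direction, where the background was only 0.613% lower and 1.02% higher. There 6 genes were higher and 3 lower, with a median of 0.12 against 0.02 for all genes. With 9 genes, these counts describe the set and do not show that it stands apart from other genes.

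Summed levels put the opposite changes side by side. The 3 methyltransferases together came to 109 FPKM in CTR, to 57.3 in CEBPA and to 106 in P30. The 3 TET genes together came to 15.6, 19.6 and 18.6 FPKM. The ratio of summed DNMT to summed TET FPKM was therefore 7.00 in CTR, 2.92 in CEBPA and 5.72 in P30. IDH1 and IDH2 together came to 132, 61.9 and 110 FPKM, and IDH2 made up 49.0%, 35.4% and 64.7% of these sums. FPKM are per transcript length, so that genes can be added, but they measure RNA and not enzyme activity or methylation, which were not measured here.

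**Figure D3:**
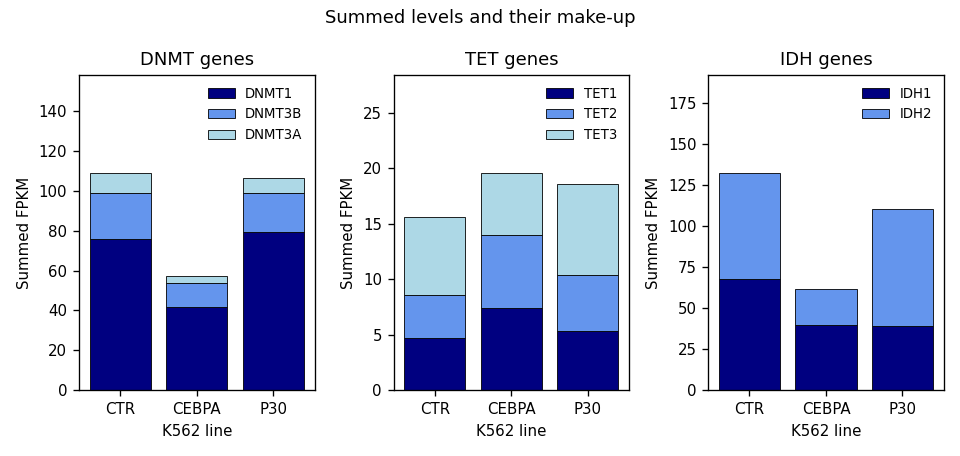
Summed FPKM (linear axis from 0) of the DNMT, TET and IDH genes in CTR, CEBPA and P30, each bar divided by gene; values are pooled over replicates and carry no error bar. The DNMT bar is 57.3 FPKM in CEBPA against 109 in CTR, the TET bar is highest in CEBPA at 19.6, and IDH2 holds most of the IDH bar in P30 only.

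Because DNMT1 and UHRF1 act at the replication fork, genes of DNA replication were set beside them. Of 20 listed genes 17 had a value, and 15 of these were lower in CEBPA than in CTR, with a median log2 change of -0.59. All 17 were higher in P30 than in CTR, with a median of 0.20. CDT1, which licenses replication origins, stood at 55.2 FPKM in CTR, at 20.6 in CEBPA and at 72.0 in P30, and TYMS, which makes thymidylate, at 106, 41.3 and 112. RRM1, a subunit of ribonucleotide reductase, and POLA1, of the primase-polymerase complex, were higher in CEBPA, by 0.54 and 1.99 on the log2 scale. The changes of DNMT1 and UHRF1 in CEBPA vs CTR thus lie on the same side as those of most replication genes, and both lie beyond their median. The study reports that doxycycline arrested the proliferation of CEBPA cells, with no effect on that of CTR and P30 cells. The part of replication or of this arrest in the lower values of DNMT1 and UHRF1 was not tested.

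Partners of DNMT1 and UHRF1 were measured for 10 of 14 listed genes, of which 8 were lower in CEBPA than in CTR, with a median of -0.28. TRIM28, a corepressor, and PCNA, the replication clamp that binds DNMT1, were lowest with a log2 change of -0.71 each. HELLS, a chromatin remodeler needed for DNA methylation, was higher by 0.35. CDCA7L, a relative of the HELLS partner CDCA7, stood at 9.72, 33.5 and 14.3 FPKM in CTR, CEBPA and P30, a log2 change of 1.69. The list of methyl-CpG readers and of proteins with a related domain had 9 of 10 genes with a value. Of these, 8 were lower in CEBPA, with a median of -0.34 and 0 genes at a 2-fold change. Among the 13670 genes, 6.81% were at least 2-fold lower and 13.9% at least 2-fold higher. MBD6 (-0.84) and MBD5 (-0.81), listed for their domain and not as proven readers, were the lowest. ZBTB33 was at -0.03, and MBD2, which binds methylated DNA for the NuRD complex, was the only one higher (0.47).

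Genes of active demethylation and base excision repair were mixed, with 9 of 15 lower in CEBPA than in CTR and a median of -0.28. CXXC5, a CpG-binding protein of the family that partners with TET2, stood at 39.0, 12.3 and 30.6 FPKM in CTR, CEBPA and P30, a log2 change of -1.59 in CEBPA vs CTR. OGT, the glycosyltransferase that binds TET proteins, went the other way, with 176, 338 and 208 FPKM. APEX1, which cuts abasic sites, changed by -0.75 and POLB, which fills the repaired gap, by 1.10. TDG, which excises the oxidized bases that TET enzymes make, was at 35.5, 29.1 and 37.3 FPKM, and is named outside the naming rule because it acts directly after TET.

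The cycle that supplies S-adenosylmethionine, the methyl donor of the DNMT enzymes, stood apart from the writers in direction. Of 14 genes with a value, 10 were higher and 4 lower in CEBPA than in CTR, with a median log2 change of 0.35, or 0.38 for the 13 genes over 1 FPKM. The 13 include BHMT and MAT1A, which exceeded 1 FPKM in CEBPA only and so could enter only as higher there. BHMT, which remethylates homocysteine in liver, stood at 0.0765 FPKM in CTR, at 8.27 in CEBPA and at 0.0296 in P30. MAT1A, the liver form of S-adenosylmethionine synthetase, stood at 0.292, 5.48 and 0.142 FPKM. MAT2A, the form of other tissues, was far more abundant, with 280, 213 and 298 FPKM.

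Enzymes that make or use 2-oxoglutarate and its neighbours in the citric acid cycle did not share the lower values of IDH2. Of 15 genes measured, 9 were lower and 6 higher in CEBPA than in CTR, with a median of -0.03. IDH3G, a subunit of the NAD-dependent isocitrate dehydrogenase, changed by -0.89. DLD, a shared subunit of the oxoacid dehydrogenases, changed by 0.50. FH, whose substrate fumarate inhibits TET enzymes, stood at 126, 271 and 130 FPKM in CTR, CEBPA and P30. In P30 vs CTR the medians of the partner, reader, demethylation, S-adenosylmethionine and 2-oxoglutarate lists lay between 0.04 and 0.13, and 0 of their genes over 1 FPKM differed by 2-fold on the log2(FPKM + 1) scale.

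**Figure D4:**
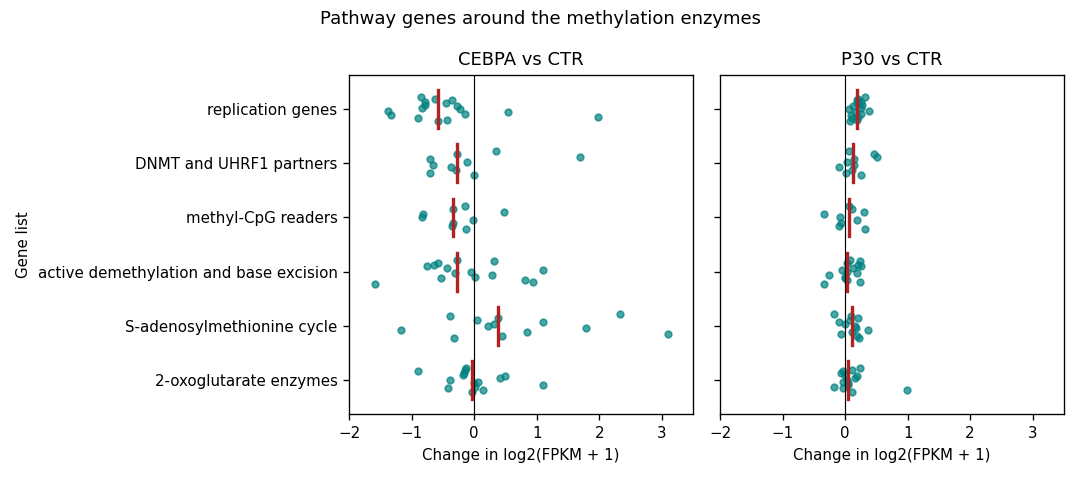
Change in log2(FPKM + 1) of the genes over 1 FPKM in 6 pathway lists, for CEBPA and for P30, each relative to CTR; each point is a gene and the vertical bars are medians. In CEBPA vs CTR the medians run from -0.59 (replication genes) to 0.38 (S-adenosylmethionine cycle), whereas in P30 vs CTR they lie between 0.04 and 0.20.

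The genes nearest to the 3 members with a 2-fold change were found by the Euclidean distance of log2(FPKM + 1) over the 3 pooled groups. ZNF428, CNTROB and HCFC1R1 were nearest to UHRF1, at distances from 0.09 to 0.12. PTPRF, RP5-1074L1.4 and MLLT11 were nearest to DNMT3A, at 0.14 to 0.20. The nearest to IDH2 were CDT1, FERMT3 and PKMYT1, at 0.25 to 0.31. With 3 values per gene, this likeness is a description of level and direction only.

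The identity of the cells was checked by markers. Of 8 erythroid markers 6 had a value, which summed to 1715, 682 and 1225 FPKM in CTR, CEBPA and P30. In CEBPA 5 of the 6 were at least 2-fold lower than in CTR, where 6.81% of all 13670 genes were. Among these 5 was GATA1 (185, 53.1 and 193 FPKM), while the transferrin receptor TFRC stood at 133, 134 and 145. In P30, GATA1 stayed near CTR, but the fetal globin HBG1 was lower (872, 389 and 410 FPKM), as were KLF1 (-0.47 on the log2 scale) and EPOR (-0.44). HBG1 is uncertain, since reads may match its near-identical copy HBG2. These lower erythroid values move with the lower IDH1 value in P30, and their part in it was not tested. Summed over each list, the granulocyte markers with a value (6 of 8) came to 7.11, 8429 and 42.2 FPKM, and the 4 monocyte markers 46.7, 1837 and 50.0. In CEBPA these sums were mostly S100A8 and S100A9 (3731 and 4623 FPKM) and LYZ (1781 FPKM). Of the 6 granulocyte markers 5 were at least 2-fold higher in CEBPA than in CTR, where 13.9% of all 13670 genes were. LTF, 1 of these 5, exceeded 1 FPKM in CEBPA only, as did the monocyte markers CD14 and FCGR3A. These 3 could therefore pass that level only as higher there. The integrin ITGAM, in contrast, stood at 2.59, 2.43 and 14.3 FPKM and was highest in P30. The lymphoid markers with a value (4 of 6) had 13.7, 7.52 and 15.0 FPKM, and the 4 fibroblast and epithelial markers, most of it the keratin KRT8, 242, 118 and 256. The T cell gene CD3E was below 1 FPKM in every line, CD3D stood at 6.61 FPKM in CTR, and no listed marker with a value was at 0. In P30, 4 of the 6 granulocyte markers (S100A8, S100A9, CEBPE and ITGAM) were at least 2-fold higher than in CTR, where 0.878% of all 13670 genes were. DNMT1, UHRF1 and IDH2 were not lower in P30 than in CTR. Most myeloid markers thus move with the lower writer and IDH2 values in CEBPA, but several granulocyte markers rose in P30 without them. The part of these markers in the writer and IDH2 values was not tested.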

How the data were processed

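RNA-seq covered 6 samples, with 2 replicates for each of the K562 lines CTR, CEBPA and P30. The methods of the study describe 2 sequencing runs, the second with libraries made at another institute and read on another instrument. The pooled values do not separate these runs. According to the methods of the study, reads were aligned to hg19 with TopHat and assembled with Cufflinks on a Gencode annotation. Cuffdiff was used there to test for differential expression, and the submitters' processing notes also name CASAVA. The authors deposited FPKM in 3 tables, with 1 value per gene and group and the replicates pooled. Library normalization and row selection are not given in the sources used here. No count was recovered. The study gives a range of read pairs over its samples, but the tables hold neither counts nor a depth per group, and no interval, SD or p-value was computed.

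The CEBPA vs CTR and CEBPA vs P30 tables were joined by symbols that occur 1 time in each. The P30 vs CTR table, with 14956 rows, was not part of this join and gave the 12395 genes compared in that pair. Differences of log2(FPKM + 1) were taken among genes over 1 FPKM in at least 1 group of the pair, or of the 3 groups for lists, and a change of 2-fold on this scale was counted. Named genes are the 9 members, the 2 highest and 2 lowest changes of each list in CEBPA vs CTR, and the 3 genes nearest to each member with a 2-fold change there. Some genes that this rule selects are not reported here. IDH1-AS1, TDG, the markers and the genes of the closing section lie outside this rule. The members and lists were chosen with earlier results of these data known. Promoter windows were read from GRCh37 at canonical transcripts of a later Gencode release than the authors' one. Alternatives were pseudocounts of 0.1 and 0.5, no filter or a filter at 5 FPKM, and centring on the median. The computations were tested on simulated data. Python 3.11.15, numpy 2.4.6, pandas 2.3.3 and matplotlib 3.10.9 were used.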

Additional observations from a re-analysis of the deposited data

How the results depend on the processing

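No paired analysis was possible because replicates are merged in every column, and likewise no replicate could be left out. Shifts of a log2 value were judged against 0.20, the spread of all changes in P30 vs CTR, and shifts of a count against a factor of 1.5. The 81 recomputed changes of the 9 genes, with pseudocounts of 0.1 and 0.5 and with centring, shifted by at most 0.19. All kept their direction, but a pseudocount cannot alter the direction of a difference, so that only centring could have done so. Of 210 recomputed values in all, 204 stayed within these limits, 6 moved and 0 reversed. Those 6 were counts over all genes. A smaller pseudocount can only raise such a count and a stricter filter can only lower it, so the direction of these shifts was fixed in advance. Some of the 204 could not have moved. With a pseudocount of 1, a 2-fold change needs at least 1 FPKM, so that counts without a filter had to stay the same. The members counted as 2-fold lower all exceeded 5 FPKM in a group, so that no filter could alter the member counts. With a pseudocount of 0.1, P30 vs CTR had 200 genes at least 2-fold higher and 184 lower, and with 0.5 it had 117 lower. With a filter at 5 FPKM, the genes at least 2-fold higher numbered 1216 in CEBPA vs CTR, 81 in P30 vs CTR and 1080 in CEBPA vs P30.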

Other observations

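Germline and cancer-testis genes, many of which are known to be methylated at their promoters in somatic cells, were listed after the values of the methylation enzymes had been seen. Of 30 genes 19 had a value. In CEBPA vs CTR 15 of the 19 were lower and 4 higher, with a median log2 change of -0.25, and in P30 vs CTR 14 were lower and 5 higher, with a median of -0.11. The X-linked members differed widely in level. In CTR, CEBPA and P30, PAGE5 had 147, 82.8 and 136 FPKM and MAGEB2 had 62.3, 57.0 and 50.1, while MAGEA4 had 0.487, 0.249 and 0.300. PRAME, an autosomal cancer-testis gene, was the most abundant of the list, at 1349, 708 and 1259 FPKM in CTR, CEBPA and P30. The 4 genes that were higher in CEBPA are germ cell genes at under 3 FPKM in every line. DDX4, a germ cell RNA helicase, had 0.0292, 2.64 and 0.0818 FPKM. PIWIL2, which binds small RNAs of the germline, had 0.0651, 2.43 and 0.0812 FPKM. SYCP3, of the meiotic chromosome axis, had 0.282, 0.784 and 0.183 FPKM, and MAEL, of the same small RNA pathway as PIWIL2, had 0.230, 0.688 and 0.255. Families such as MAGE, GAGE and PAGE hold near-identical copies, and their values are uncertain where reads match several copies. Methylation of these promoters was not measured here.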
